A study of Mus musculus with 37 samples.

Results

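Splenic dendritic cells (sDCs) were exposed to the cytokine IL-10 before the bacterial endotoxin LPS, and their transcripts were compared with those of sDCs given LPS alone. The question was which genes IL-10 held down and which it raised further while LPS was present. Transcripts were summed per gene name, and a gene was kept if its value reached 10 in either of the 2 groups, which left 5946 of the 6509 genes in the table. These 6509 genes are a part of the transcriptome. Many genes of the lists below are absent from it, which does not mean that they were low. The change was taken as log2((IL-10+LPS + 1)/(LPS + 1)), so a negative value means a lower level when IL-10 was added, and the added 1 understates the change of low genes.

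The cells came from spleens of C57Bl6cJ mice and were enriched with magnetic beads. They formed 4 groups: untreated, IL-10 (100 ng/ml for 4 h), LPS (100 ng/ml for 4 h), and IL-10 (100 ng/ml) for 4 h followed by LPS (100 ng/ml) for a further 4 h with IL-10 already in the medium. Each group had 2 libraries, made from independent mice. In the scheme of the study both groups with LPS were harvested at the same time, whereas the groups without LPS were harvested when LPS was added to the others, so a difference between LPS and no LPS cannot be told apart from a longer culture. The same treatments in thioglycollate-elicited peritoneal macrophages, bone marrow neutrophils kept in GM-CSF and bone marrow-derived mast cells served for comparison.

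Every value below is the authors' mean of the 2 libraries of a group, in GC-normalized tags. These means carry no SD, no n and no read depth, so no gene could be tested and the difference between libraries is not known. A gene was called lower or higher at a change of 2-fold or more, and such calls say nothing about replicate error. The sums of the 4 sDC columns lay between 1.12e+07 and 1.14e+07 normalized tags, a range set by the normalization and not by sequencing depth. The highest transcript value was 185338, the same in all 18 columns.

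IL-10 signals through a receptor that activates the kinases JAK1 and TYK2 and the transcription factor STAT3, and it is known for restraining cytokine production by myeloid cells. LPS is sensed by TLR4, which drives NF-kB and, through IRF3 and secreted type I interferon, a large group of interferon-induced genes. Dendritic cells that sense microbial products leave their resting state, make cytokines such as IL-12 that direct T cells, and display antigen with costimulatory molecules.

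The purity of the preparation could be checked with only part of the marker genes chosen, because few of them are in the table. Itgax, which encodes CD11c, was at 4075.5 in untreated cells, 2753 with IL-10, 818.5 with LPS and 697.5 with both. Markers of other cells were present too: the 4 kept B cell markers summed to 2223 with LPS and 1805.5 with IL-10+LPS, the 5 T cell markers to 17164.5 and 16957, and the 3 NK cell markers to 282.5 and 305.5. Most of the T cell sum came from Tcf7 (15383 and 15359). Of the mast cell and basophil markers Tpsb2 was listed at 0 in all 4 groups, whereas Kit was at 5718.5 and 3925. None of the 3 sums moved by as much as 2-fold between the compared groups, and their part in the results was not tested.

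IL-10 lowered 119 genes by 2-fold or more during LPS (2.00% of the genes kept) and raised 143 (2.40%). With 10 in place of 1 added to each value these were 62 and 110, so the number of suppressed genes depended on low values. The change of the typical gene was small, with a median of 0.04 and a median absolute value of 0.16 on the log2 scale, against 0.44 for LPS compared with untreated cells and 0.13 for IL-10 alone. Of the genes called, 12 were lower and 42 higher by 4-fold or more. Many were weakly expressed. The median of the higher of the 2 values was 63 for the suppressed genes, 108.5 for the raised genes and 592.5 for all genes kept, and 48 suppressed and 76 raised genes reached 100. Genes named here as the largest falls and rises were taken from those. The shares of 2.00% lower and 2.40% higher are the background for the calls counted in each list below.

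**Figure D1:**
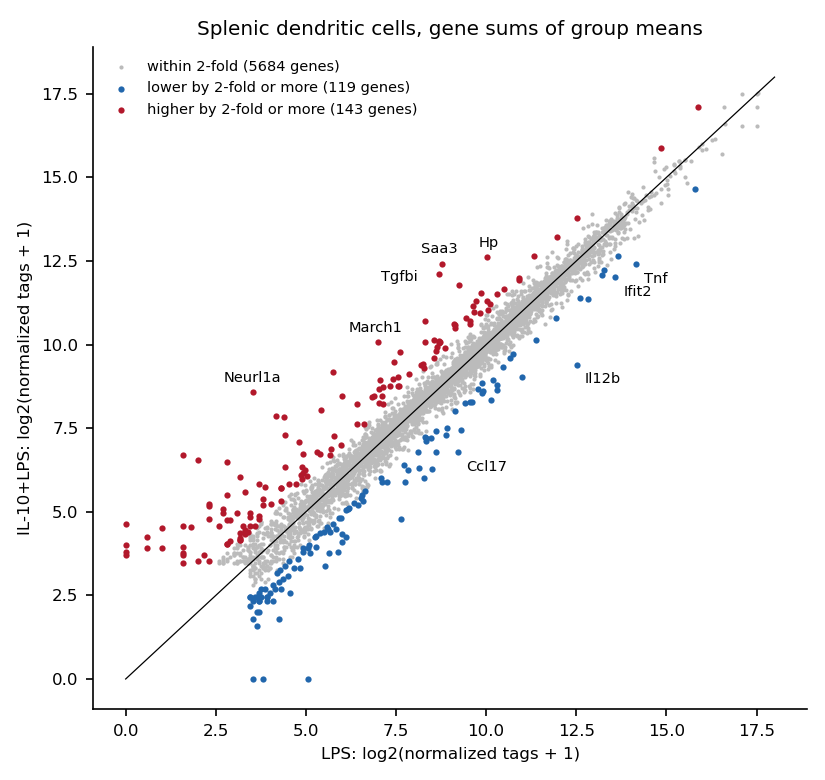
Each point is 1 of 5946 genes in sDCs, with log2(normalized tags + 1) in the LPS group on the horizontal axis and in the IL-10+LPS group on the vertical axis; blue points (119) were lower and red points (143) higher by 2-fold or more with IL-10. Most genes lie near the line of equal values, and the points farthest from it include many with low values.

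The largest fall was that of Il12b, which encodes the p40 subunit shared by IL-12 and IL-23. Its value was 665.5 in untreated cells, 346 with IL-10, 5828 with LPS and 673.5 with IL-10+LPS, a log2 change of -3.11 that left 0.155% of the LPS rise. The partner subunits moved with it. Il12a, which encodes p35 of IL-12, went from 363.5 with LPS to 76.5 with IL-10+LPS (-2.23), and Il23a, which encodes p19 of IL-23, from 45.5 to 9.5 (-2.15). The 2 subunits of the related cytokine IL-27 did not share this change. Il27 was at 1405 with LPS and 1434.5 with IL-10+LPS (0.03), and Ebi3 at 4975 and 4706 (-0.08). The 3 subunits of IL-12 and IL-23 thus lay at 11.6% to 21.0% of their LPS level with IL-10 added, and the 2 subunits of IL-27 stayed close to theirs.

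Of 23 interleukins and colony-stimulating factors listed, 14 are in these data and all 14 were kept. Among these, 5 were lower and 2 higher by 2-fold or more, with a median change of -0.85. Lif, a cytokine of the IL-6 family, was at 110 untreated, 1127 with LPS and 322.5 with both (-1.80). Il18, an inflammasome-processed cytokine that LPS left at 135 against 130.5 untreated, was at 63 with IL-10+LPS (-1.09). Csf1 (-0.92), Csf2 (-0.97) and Il15 (-0.77), growth factors for macrophages, granulocytes and lymphocytes, stayed within 2-fold. In the other direction stood Csf3, the granulocyte growth factor, listed at 0 without LPS and at 12 with LPS and 56.5 with IL-10+LPS (2.15). Il19, a cytokine of the IL-10 family, went from 1 to 14 (2.91), where a few tags decide the size of the change. Il10 itself was at 220 with LPS and 176 with both (-0.32).

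Of 17 TNF family ligands listed, 7 are in these data and 6 were kept. Among these 6, 2 were lower and none higher by 2-fold or more. Tnf was at 390 untreated, 417 with IL-10, 18268.5 with LPS and 5413 with IL-10+LPS (-1.75). Lta, which encodes lymphotoxin alpha, was at 56.5, 60, 627.5 and 175 in the same order (-1.84). IL-10 thus left 28.1% of the LPS rise of Tnf and 20.8% of that of Lta, and the genes are neighbours on chromosome 17 of mm9, Tnf from 35336326 to 35338952 and Lta from 35340110 to 35342296. Of the other 4 family members kept, none passed 2-fold. Tnfsf9, the ligand of the costimulatory receptor 4-1BB, was at 2296.5 with LPS and 2746.5 with both (0.26), and Cd70 at 527 and 402.5 (-0.39).

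Only 5 of the 26 chemokine genes listed are in these data, and the others could not be assessed. All 5 were kept, and Ccl17 and Ccl19 were lower by 2-fold or more. Ccl17, a ligand of CCR4 that attracts T cells, was at 16 untreated, 7 with IL-10, 597 with LPS and 108.5 with both (-2.45). Ccl19, a ligand of CCR7, was at 79.5 with LPS and 37.5 with both (-1.06). Ccl22, the other CCR4 ligand, was at 95000 and 52804 (-0.85) and so within 2-fold. Cxcl16 was the only chemokine kept with a value above 0 (0.12).

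Further genes among the 15 largest falls have no place in these families. Tsku, which encodes a secreted leucine-rich repeat protein, went from 199.5 with LPS to 26.5 (-2.87), and Ppfia3, which encodes a liprin, from 311 to 64 (-2.26). Mmp7, a matrix metalloproteinase, was at 154.5 untreated, 214 with LPS and 58 with both (-1.87), below the untreated value. Cass4, an adaptor of the Cas family, was also below its untreated value, with 499.5 untreated, 1252.5 with LPS and 401.5 with both (-1.64). The kinase gene Mylk2 (280 to 79, -1.81) and the potassium channel gene Kcna2 (225.5 to 74.5, -1.58) complete them, beside 3 genes of the Ifit family described next.

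**Figure D2:**
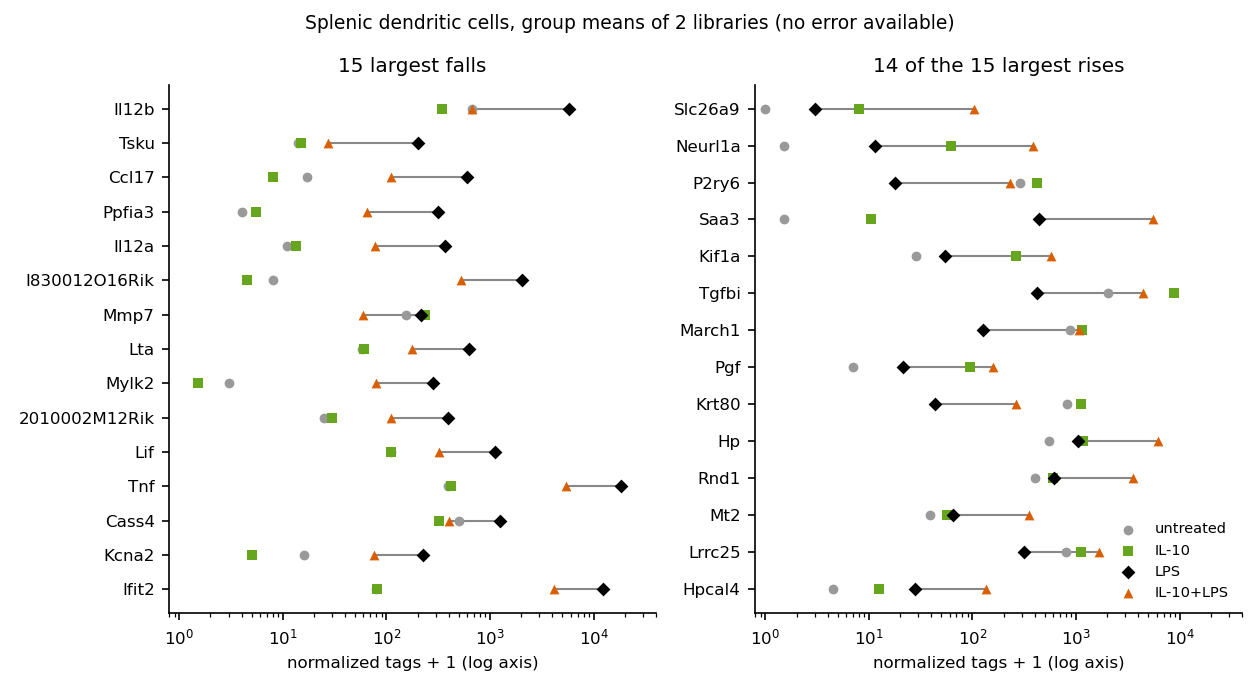
Normalized tags + 1 on a log axis for the 15 largest falls (left) and 14 of the 15 largest rises (right) among called genes whose higher value reached 100, in untreated, IL-10, LPS and IL-10+LPS sDCs; each point is a mean of 2 libraries with no error available, and the line joins the compared groups. On the left LPS is the highest group for all but Mmp7, whereas on the right LPS is the lowest group for P2ry6, Tgfbi, March1, Krt80 and Lrrc25.

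The interferon-induced genes moved together and by a moderate amount. All 34 members kept had a lower value with IL-10+LPS than with LPS, where 2483 of the 5946 genes kept did. Their median change was -0.73, against 0.04 for all genes, yet 6 were lower by 2-fold or more. LPS had raised 31 of them. Since LPS-raised genes leaned downward as a whole, the list is better set against the other 507 LPS-raised genes, of which 77.3% were below 0 with a median of -0.33. The 31 LPS-raised members had a median of -0.76 and their middle values ran from -0.93 to -0.57. The LPS group enters both steps of that comparison.

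The largest fall in this list was that of I830012O16Rik, which RefSeq names Ifit3b, from 2020 with LPS to 519.5 with both (-1.96, untreated 7). Ifit2 went from 12293.5 to 4114.5 (-1.58, untreated 78) and Ifit3 from 7228.5 to 2652.5 (-1.45, untreated 42). These genes encode RNA-binding antiviral proteins with tetratricopeptide repeats. Ifi44 (684.5 to 307, -1.15), Usp18 (9407 to 4364, -1.11), which removes ISG15 from proteins and restrains interferon receptor signalling, and Oasl2 (13041 to 6388.5, -1.03) were just past the limit. Oas3, one of the enzymes that make the activator of RNase L, was just short of it (4424.5 to 2218). Other members hardly moved, among them Gbp5 (21015 to 20110, -0.06) and Dtx3l (12415 to 11075.5, -0.16). Ifit3 and I830012O16Rik are near-identical copies, and the split of reads between them is uncertain.

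Of the factors that induce these genes, none of the 8 kept in the list of interferon regulatory factors and STATs passed 2-fold, and 7 were below 0 with a median of -0.23. Stat2 was at 12213.5 with LPS and 8427 with both (-0.54), and Irf1 at 25904 and 22529 (-0.20). Irf3 was at 1606 and 1815 (0.18). The 10 NF-kB subunits and regulators kept had a median of -0.09 and none passed 2-fold. The lowest was Nfkbiz, which encodes a nuclear cofactor of NF-kB (12240 to 7838, -0.64), and Tnfaip3, which encodes the inhibitor A20, was at 34957.5 and 33764.5 (-0.05).

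The Ifit genes form a cluster on chromosome 19. Between 34548276 and 34715233 of mm9, a stretch of 167 kb, 6 annotated genes were kept and 5 of them were lower by 2-fold or more. From one end they are Ch25h (34548276 to 34549625), Lipa, Ifit2, Ifit3, I830012O16Rik and 2010002M12Rik (34691539 to 34715233). Lipa, which encodes lysosomal acid lipase, was the exception with 1980 with LPS and 2003.5 with both (0.02). Ch25h, which encodes cholesterol 25-hydroxylase, went from 58 to 13 (-2.08), and 2010002M12Rik, which RefSeq names Ifit1bl2, from 388 to 110 (-1.81). Ifit1, which lies just past the end of this stretch, was not called, with 15299 with LPS and 9261.5 with both (-0.72). The stretch was picked after these values had been seen. Of the other sterol and fatty acid genes, Cyp27a1, which encodes sterol 27-hydroxylase, was the only one past 2-fold, with 1372.5 untreated, 321.5 with LPS and 138.5 with both (-1.21), so that both oxysterol-making enzymes of the 14 genes kept were lower and the remaining 12 were not called.

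Promoter sequences of 4 suppressed genes are shown because NF-kB and interferon-activated factors, which LPS engages, and STAT3, which IL-10 engages, bind short DNA motifs that can be looked for in them. They cover the 250 bases before the annotated start of the gene's leading transcript in mm9 (NCBIM37, GENCODE vM1), 5′ to 3′ on the coding strand. Capitals mark matches on either strand to GAAANNGAA (the core of an interferon-stimulated response element), GGGNNTTTC (kB) or TTCNNNGAA (STAT).
Il12b (chr11:44213315-44213564, plus strand): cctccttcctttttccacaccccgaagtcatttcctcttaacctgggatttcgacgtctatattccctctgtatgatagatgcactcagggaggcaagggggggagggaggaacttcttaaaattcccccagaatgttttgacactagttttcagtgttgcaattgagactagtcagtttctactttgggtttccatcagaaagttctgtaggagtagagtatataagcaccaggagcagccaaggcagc
Ccl17 (chr8:97334103-97334352, plus strand): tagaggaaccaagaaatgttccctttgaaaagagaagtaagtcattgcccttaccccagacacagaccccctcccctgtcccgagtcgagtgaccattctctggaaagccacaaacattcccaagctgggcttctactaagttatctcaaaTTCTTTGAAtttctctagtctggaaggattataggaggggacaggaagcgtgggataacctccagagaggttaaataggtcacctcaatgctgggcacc
Lta (chr17:35342297-35342546, minus strand): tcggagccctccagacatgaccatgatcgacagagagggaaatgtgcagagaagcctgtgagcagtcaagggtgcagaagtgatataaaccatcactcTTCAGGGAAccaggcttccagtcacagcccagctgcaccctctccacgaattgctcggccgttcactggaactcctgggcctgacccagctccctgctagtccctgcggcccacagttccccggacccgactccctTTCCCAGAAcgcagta
Ifit3 (chr19:34657771-34658020, plus strand): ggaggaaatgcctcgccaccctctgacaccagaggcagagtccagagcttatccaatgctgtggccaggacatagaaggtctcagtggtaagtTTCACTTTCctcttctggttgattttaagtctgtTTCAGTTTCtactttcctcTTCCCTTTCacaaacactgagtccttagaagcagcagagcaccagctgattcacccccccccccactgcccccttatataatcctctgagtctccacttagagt

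In the Ifit3 sequence the capitals are 3 matches to the response element core, the nearest ending 96 bases before the start. Lta holds 2 matches to the STAT motif and Ccl17 holds 1, while Il12b shows no match to these letters in this window. Over windows that also take in the first 50 transcribed bases, 25 of the 34 interferon-induced promoters (73.5%) held the response element core, against 8.50% of 5939 promoters of genes kept. Among the 66 genes that LPS raised and IL-10 suppressed it was 18.2%, and among the 471 that LPS raised and IL-10 did not suppress 15.9%, so the 2 LPS-raised classes were close. The kB motif was in 1.52% and 6.16% of the same classes, the first being a single promoter, and the STAT motif in 9.09% and 8.28%. For all genes kept these were 4.55% and 7.24%. CG dinucleotides differed more. Their median number was 8 in the promoters of LPS-raised suppressed genes, 15 in those of the other LPS-raised genes and 20 in all. It was also low in genes that IL-10 raised, at 10, and at 6 in those of them that LPS had lowered. A low number was thus not particular to suppressed genes. These shares are descriptions, and a match is not a site that a factor is known to occupy.

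Of 13 genes for costimulation and T cell inhibition none passed 2-fold, where 2.00% of all genes were lower and 2.40% higher, so that few calls would be found in any list of this size. Their median was -0.12. Cd86 was at 2344 untreated, 14843.5 with LPS and 14568.5 with both (-0.03), Cd80 at 2102, 7933.5 and 6915.5 (-0.20), and Cd40 at 1824.5, 29391.5 and 25934 (-0.18). These 3 were among the less changed members. Cd200r1, an inhibitory receptor gene, was at 146 with LPS and 250.5 with both (0.77), Icosl, the ligand of ICOS, at 19482.5 and 12932 (-0.59), Lgals9, which encodes galectin 9, at 1576 and 1044 (-0.59), and Havcr2, which encodes TIM-3, at 185.5 and 130 (-0.51). LPS had raised 9 of the 13. The migration receptor gene Ccr7 was at the maximum of the table, 185338, both untreated and with IL-10, and at 140082 with LPS and 94827 with both (-0.56), so its level without LPS may be higher than shown. Of the 13 maturation and migration genes kept, Ccl17 was the only one past 2-fold, and their median was -0.01.

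March1 stood apart from the other antigen presentation genes. It encodes a ubiquitin ligase that removes MHC class II and CD86 from the cell surface. Its value was 874 untreated, 1138.5 with IL-10, 126.5 with LPS and 1077 with IL-10+LPS, a change of 3.08 that brought it back above the untreated level. Only 10 of the 32 antigen presentation genes listed are in these data, and no MHC class II gene is among them. The other 9 antigen presentation genes kept were within 2-fold. Ifi30, a lysosomal thiol reductase gene, was the nearest to the limit at 6547.5 and 11485 (0.81), and the class I genes H2-K1 (-0.05) and H2-D1 (-0.03) were close to 0. The list as a whole had a median of 0.20.

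Microbial sensors were lower in part. Of 19 pattern recognition and signalling genes 2 were lower by 2-fold or more and none higher. Tlr9, the endosomal receptor for CpG DNA, was at 2329.5 untreated, 1639 with IL-10, 1418 with LPS and 648.5 with both (-1.13). Tlr3, the receptor for double-stranded RNA, went from 53 to 24 (-1.11), but its most abundant transcript taken alone gave 0.60. Tlr7 (793.5 to 407, -0.96) and Tlr8 (51.5 to 30.5, -0.74) for single-stranded RNA lay below 0 and within 2-fold, whereas Tlr13, the sensor of bacterial ribosomal RNA, was at 472.5 and 529 (0.16). The signalling genes Irak4 (0.00), Ticam1 (-0.01) and Traf3 (-0.12) were close to 0.

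Markers of dendritic cell subsets moved as well. The 4 cDC1 markers kept summed to 692.5 with LPS and 471.5 with both, with all 4 below 0 and a median of -0.78, and included Clec9a (49.5 to 27.5, -0.83), Cadm1 (388.5 to 234.5, -0.73) and Xcr1 (201.5 to 185.5, -0.12). The 5 cDC2 markers summed to 2759.5 and 3957.5, with 4 above 0 and a median of 0.68. Itgam (1810.5 to 3124.5, 0.79) gave most of the sum, and Clec4a4 (476 to 281, -0.76) went the other way. Clec12a was at 451.5 and 512 (0.18). The median is the value of Clec10a (9 to 15), and Mgl2 was also low (12.5 to 25, 0.95). A few tags decide the changes of both. In whole preparations such as these, fewer cells of a type and less RNA per cell cannot be told apart. The 4 cDC1 markers include Tlr3 itself (-1.11), whose most abundant transcript taken alone gave 0.60. The part of these shifts in the values of Tlr9 and other genes was not tested.

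Among the genes that IL-10 raised, the largest log2 changes were those of Slc26a9 (5.10), an ion transporter gene at 2 with LPS and 102 with both, and Neurl1a (5.05), which encodes a ubiquitin ligase of the neuralized family and was at 0.5 untreated, 61 with IL-10, 10.5 with LPS and 380 with both. Saa3, an acute-phase protein gene, was at 0.5 untreated, 9.5 with IL-10, 438 with LPS and 5493 with both (3.65). Hp, which encodes the hemoglobin-binding protein haptoglobin, was at 542, 1173.5, 1048.5 and 6245.5 in the same order (2.57). For these genes IL-10+LPS was the highest of the 4 groups. The rank of Slc26a9 rests on the added 1, and with a pseudocount of 10 it changed by 3.22, less than Neurl1a (4.25) and Saa3 (3.62).

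Tgfbi, which encodes a matrix protein induced by TGF-beta, followed another order. It was at 2011 untreated, 8783.5 with IL-10, 414 with LPS and 4393 with both (3.40), so that it was raised by IL-10 at either step. P2ry6, a receptor for UDP, was at 287, 423, 17 and 231.5 (3.69). Krt80, a keratin gene, was at 825.5, 1113, 42 and 264 (2.62). In both cases LPS lowered the gene and IL-10 held part of its level. Of the 622 LPS-lowered genes kept here, IL-10 raised 57 (9.16%), against 2.40% of all genes kept. In these 57 the median value was 22.2% of the untreated one with LPS and 70.2% with IL-10+LPS, and 15 reached the untreated value or more. The 57 genes were chosen by these same means. A low level with LPS and a rise from it therefore follow in part from the choice.

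The remaining large rises were Kif1a (kinesin motor, 53 to 577, 3.42), Pgf (placental growth factor, 20.5 to 157, 2.88), Rnd1 (small GTPase, 607.5 to 3546.5, 2.54), Mt2 (metallothionein, 63.5 to 349, 2.44), Lrrc25 (313 to 1655.5, 2.40) and Hpcal4 (27 to 134.5, 2.27). Mt1 next to Mt2 on chromosome 8 was at 372.5 and 1120.5 (1.59), and since the 2 genes are close copies the split of reads between them is uncertain. Timp1, an inhibitor of metalloproteinases, was at 3 with LPS and 93 with both (4.55). Its LPS value is so low that the size of the change rests on the added 1.

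Promoters of 3 raised genes with different behaviour, again with motif matches in capitals, are the following: an acute-phase gene, a gene that LPS lowered and IL-10 restored, and one that IL-10 raised on its own.
Saa3 (chr7:53971047-53971296, minus strand): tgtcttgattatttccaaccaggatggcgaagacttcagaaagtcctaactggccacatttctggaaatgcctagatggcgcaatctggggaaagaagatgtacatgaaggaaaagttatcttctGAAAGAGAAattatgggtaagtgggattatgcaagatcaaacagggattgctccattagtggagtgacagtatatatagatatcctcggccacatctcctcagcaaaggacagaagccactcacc
March1 (chr8:68490806-68491055, plus strand): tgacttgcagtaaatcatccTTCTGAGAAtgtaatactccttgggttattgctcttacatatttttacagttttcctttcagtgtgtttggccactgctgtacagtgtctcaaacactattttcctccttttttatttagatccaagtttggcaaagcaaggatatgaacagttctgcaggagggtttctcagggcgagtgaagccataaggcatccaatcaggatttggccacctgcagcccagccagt
Tgfbi (chr13:56710714-56710963, plus strand): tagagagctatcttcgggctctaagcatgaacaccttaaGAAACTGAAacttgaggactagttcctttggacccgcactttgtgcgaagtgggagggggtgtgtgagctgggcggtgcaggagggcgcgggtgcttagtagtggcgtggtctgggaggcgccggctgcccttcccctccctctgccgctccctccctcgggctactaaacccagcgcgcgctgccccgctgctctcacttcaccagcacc

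March1 holds 1 match to the STAT motif, while Saa3 and Tgfbi each hold 1 to the response element core and none to the STAT letters in this window. The March1 window precedes its leading transcript, which starts well inside the annotated gene (68141799 to 68995536 on chromosome 8). Across the 143 raised genes 8.39% of promoters held the STAT motif, against 7.24% of all. The median number of CG dinucleotides was 10.

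Among signalling genes of the cytokine receptor pathways, Ptpn1 and Jak3 were the 2 of 13 past 2-fold, both higher. Ptpn1, which encodes a phosphatase that acts on JAK2 and TYK2, was at 2584 untreated, 4306 with IL-10, 2578.5 with LPS and 6431 with both (1.32). Jak3, the kinase of the common gamma chain, was at 1229, 2695.5, 1036.5 and 2529 (1.29). The IL-10 receptor genes Il10ra (4923.5 to 4386, -0.17) and Il10rb (1940 to 2139, 0.14) stayed close to their LPS level. Of 30 genes listed as known IL-10 and STAT3 targets only 16 are in these data, so the others could not be assessed. Of the 15 kept, Cebpb (697 to 1792.5, 1.36) was the only one past 2-fold. Hmox1, heme oxygenase 1, was just outside it (7769.5 to 15406, 0.99), and the corepressor gene Sbno2 was at 4870.5 and 8180 (0.75). The list had 10 of 15 above 0 and a median of 0.13.

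Genes for nitric oxide and prostaglandins had the highest median of the pathway lists, 0.48, with 9 of 10 above 0 and 3 past 2-fold. Nos2, inducible nitric oxide synthase, was listed at 0 without LPS and was at 187.5 with LPS and 430 with both (1.19). Ptges, prostaglandin E synthase, went from 314.5 to 1077 (1.77) and Pla2g4a, the phospholipase that frees arachidonic acid, from 138 to 348.5 (1.33). Between these enzymes acts Ptgs2, cyclooxygenase 2, which was at 3434.5 and 2738 (-0.33). Of 27 receptor genes 3 were higher and none lower. One of them, Tgfbi, encodes no receptor and is counted there only by its place in the list. Another was the chemokine receptor gene Ccr2 (190 to 432.5, 1.18), which LPS had lowered from 2986.5.

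The other lists held few calls. Over all genes kept 2.00% were lower and 2.40% higher, so lists this short would hold few or none in any case. Both genes past 2-fold of the 16 for glycolysis and lactate encode lactate transporters, Slc16a1 (84 to 300, 1.82) and Slc16a3 (306.5 to 625.5, 1.03), and the list had 12 of 16 above 0 with a median of 0.25. In the list of MAP kinases and AP-1 2 genes of 12 were higher, among them Batf, a dimer partner of JUN proteins (564 to 1444, 1.35). E2f1 (28 to 67.5, 1.24) was the only call of 15 cell cycle genes. None was called among 12 cell death genes (median 0.06), 12 lysosome and autophagy genes (0.20) or 10 ribosomal protein genes, all 10 of which were above 0 with a median of 0.18. The neutrophil markers kept, which include Mmp8 (377.5 to 769, 1.02), had a median of 0.77 and summed to 1232 and 1726.5. The macrophage markers had a median of -0.07 and summed to 14662 and 23425. The rise of this sum came from Spic (1941 to 4110.5, 1.08) and Hmox1 (7769.5 to 15406, 0.99), a listed IL-10 target. The other macrophage markers kept were below 0, namely Emr1 (-0.03), Vcam1 (-0.70), Slc40a1 (-0.10) and Marco (-0.49). The part of neutrophils and macrophages in the raised genes was not tested.

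**Figure D3:**
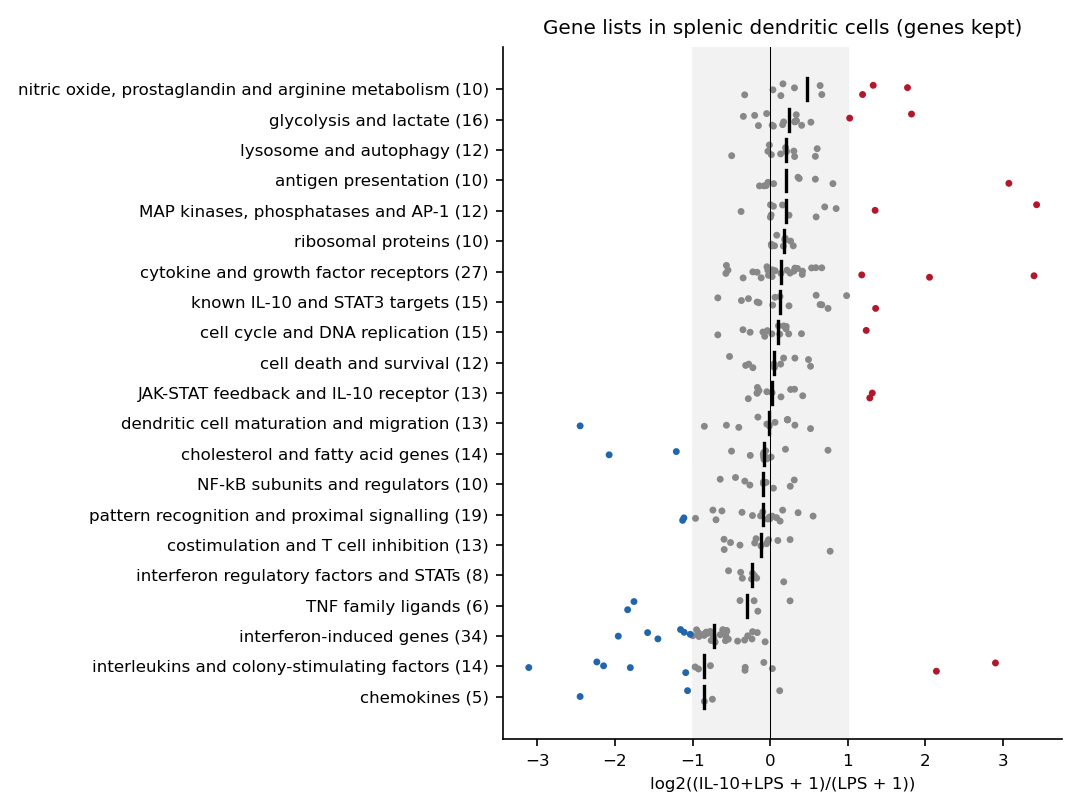
Change with IL-10 during LPS, log2((IL-10+LPS + 1)/(LPS + 1)), of each kept gene of 21 lists in sDCs, ordered by the list median (black bar), with the number of genes kept in parentheses; blue and red points are past 2-fold and the grey band holds changes within it. All 34 interferon-induced genes lie left of 0, mostly within the band, while cytokine and chemokine genes reach -3.11 and the raised genes are scattered over several lists.

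Just inside the 2-fold limit on the lower side were Oasl2 (-1.03) and Kdr (1705 to 835, -1.03), and just outside it Trim12a (3144 to 1575) and Oas3 (4424.5 to 2218). On the higher side Zc3h12d (1053 to 2113, 1.00) and Dos (97.5 to 198, 1.01) were just inside, and Hmox1 (0.99) and Nfam1 (519 to 1027.5, 0.98) just outside. The calls on either side of the limit differ by too little to set these genes apart.

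How the IL-10 effect sits on the LPS response can be read from the classes of genes. Compared with untreated cells, LPS raised 538 genes (8.98% of 5990 kept in that comparison) and lowered 686 (11.5%) by 2-fold or more. Of the 538 raised genes IL-10 lowered 66 (12.3%) and raised 21 (3.90%), and the median change was -0.35. Of the 622 LPS-lowered genes that were also kept here, IL-10 lowered 10 (1.61%) and raised 57 (9.16%), with a median of 0.19. For the other 4786 genes, of which 39 were too low in the LPS comparison to be assessed there, the shares were 0.898% and 1.36%. Both comparisons contain the LPS libraries, so an LPS value that is too high or too low moves a gene in opposite directions in them. In the 66 genes raised by LPS and suppressed, a median of 26.1% of the LPS rise was left, with a range of -18.2% to 48.5%, and 9 genes were at or below their untreated value. The 2-fold call itself limits how much of the rise can be left, so the upper end of this range is set by the call. The 21 genes raised at both steps include Saa3, Ptges, Batf, Nos2 and Csf3.

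IL-10 alone had a smaller reach. Against untreated cells it lowered 43 genes (0.723% of 5944) and raised 87 (1.46%) by 2-fold or more. This comparison has no library in common with IL-10+LPS against LPS, although IL-10 had acted for 4 h longer in the latter. Over 5840 genes kept in both, the changes had Pearson's r of 0.36 and Spearman's rho of 0.32, given as a description, since the genes come from the same 4 group means. In both comparisons 12 genes were lower, which is 10.1% of the 119 and 27.9% of the 43, and 25 were higher, 17.5% of the 143 and 28.7% of the 87. Opposite calls were found for 3 of the suppressed genes and 1 of the raised genes.

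The raised genes leaned the same way without LPS more than the suppressed genes did. Of 119 raised genes with a value there, 98 were above 0 with a median of 0.55, and of 95 suppressed genes 61 were below 0 with a median of -0.30, against 0.01 for all genes. Kif1a (3.22), Tgfbi (2.13), Jak3 (1.13) and Hp (1.11) were among the genes higher at both steps. Il12b was at 665.5 untreated and 346 with IL-10 (-0.94), just within 2-fold, and Ccl17 was at 16 and 7 (-1.09). Tnf (0.10), Lta (0.09) and Lif (-0.02) did not share their fall when LPS was absent. The interferon-induced genes did not lean downward either. Of the 32 kept in that comparison 25 were above 0 with a median of 0.17, and Oas2 (48.5 to 139.5, 1.51), Igtp (249.5 to 662, 1.40), Rtp4 (45.5 to 100.5, 1.13) and Zbp1 (154 to 336, 1.12) were higher by 2-fold or more.

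**Figure D4:**
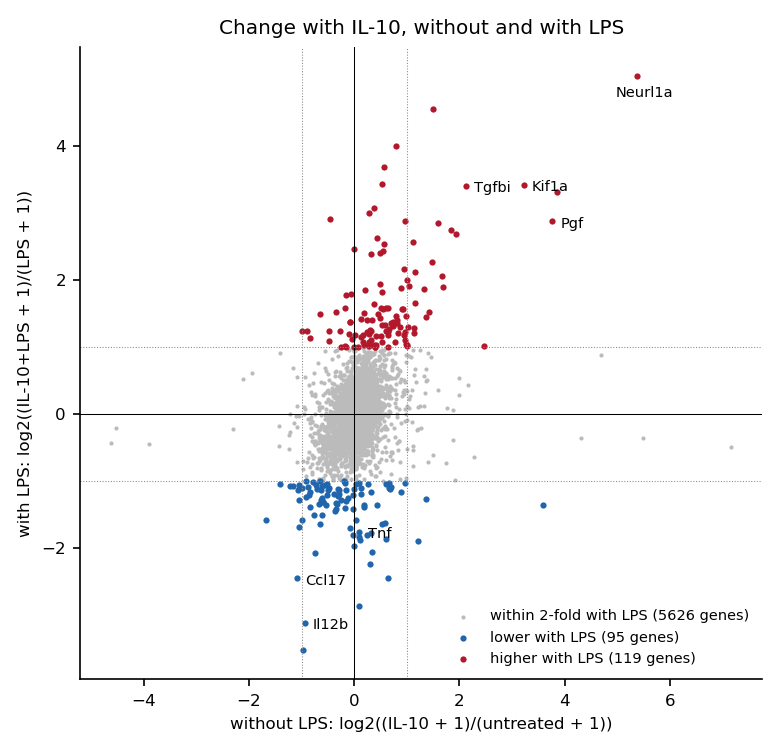
Change with IL-10 in sDCs without LPS (horizontal, log2 of IL-10 over untreated) and with LPS (vertical, log2 of IL-10+LPS over LPS, each with 1 added) for 5840 genes; blue and red points are genes past 2-fold with LPS and dotted lines mark 2-fold. Red points lie mostly to the right of 0, whereas blue points are spread on both sides, with Il12b at -0.94 and Tnf at 0.10 without LPS.

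In other myeloid cells the same comparison shares no library with sDCs. IL-10 lowered 4.30% and raised 2.94% of genes during LPS in macrophages, 3.71% and 2.96% in neutrophils, and 4.55% and 2.78% in mast cells. Of the 119 genes suppressed in sDCs, 23 were lower by 2-fold or more in macrophages, 39 in neutrophils and 18 in mast cells, out of 256, 218 and 257 genes lower there. These are 19.3%, 32.8% and 15.1% of the 119. Only 86, 79 and 58 of the 119 were kept there, and over those the shares are 26.7%, 49.4% and 31.0%. Of the 143 raised genes 34, 45 and 22 were higher in the same order (23.8%, 31.5% and 15.4%), out of 175, 174 and 157 genes higher there. Of these 143 genes 121, 122 and 105 were kept there, of which the same calls are 28.1%, 36.9% and 21.0%. The median change of the suppressed genes was -0.41 in macrophages, -0.92 in neutrophils and -0.50 in mast cells, and that of the raised genes 0.34, 0.51 and 0.24, where all genes had medians of -0.01, 0.00 and -0.02. In none of the 3 other cell types were 70 of the 119 suppressed and 86 of the 143 raised genes called in the same direction, which does not show that they differ between cell types, since no difference could be tested.

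The genes lower in all 4 cell types were Il12b, Ccl17, Ppfia3, I830012O16Rik, Lta, Lif and Tpbg. Il12b had the largest change of them in 3 cell types. It was at 4281.5 with LPS and 266 with both in macrophages, at 13131 and 88.5 in neutrophils (-7.20), and at 58.5 and 8 in mast cells (-2.72), where Tpbg (-3.07) and Ppfia3 (-2.85) changed more. Tpbg, which encodes a trophoblast glycoprotein, was at 210.5 with LPS and 84 with both in sDCs (-1.32). The 11 genes higher in all 4 included Zc3h12d, Lrg1, Jak3, Mt1, Mt2, Slc16a1, Lrrc25, Sema6b, P2ry6 and Timp1. Lrg1 (25.5 to 56.5, 1.12) encodes a leucine-rich glycoprotein and its neighbour Sema6b (6 to 44, 2.68) a semaphorin, 1.14 kb apart on chromosome 17.

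**Figure D5:**
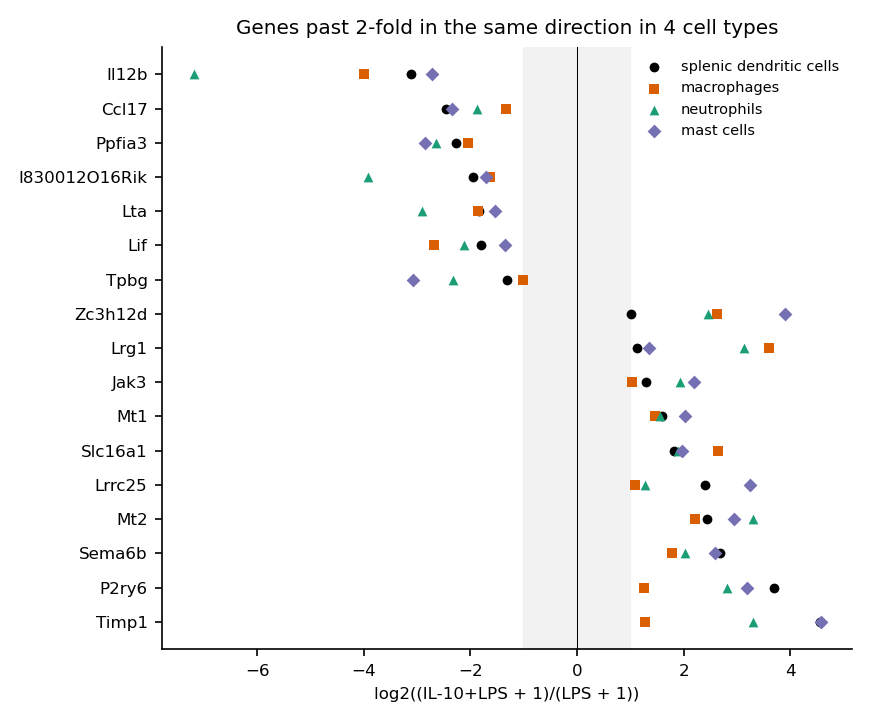
Change with IL-10 during LPS, log2((IL-10+LPS + 1)/(LPS + 1)), in sDCs, macrophages, neutrophils and mast cells for the 7 genes lower and 10 of the 11 genes higher by 2-fold or more in all 4; each point rests on 2 group means with no error. The grey band marks changes within 2-fold, and values run from -7.20 for Il12b in neutrophils to 4.57 for Timp1 in mast cells.

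Some of the named sDC genes had a change of another size or direction in at least 1 other cell type. Saa3 changed by 3.65 in sDCs, 0.43 in macrophages, where it was already at 70260 with LPS, 1.83 in neutrophils and 1.85 in mast cells. Cebpb changed by 1.36 in sDCs and by -0.07, 0.03 and 0.15 in macrophages, neutrophils and mast cells. Neurl1a, at 5.05 in sDCs, was at -0.19 in macrophages and 0.43 in neutrophils. Krt80 was higher in sDCs (2.62) and neutrophils (1.54) and lower in mast cells (-1.81). In the other direction, Tnf changed by -1.75 in sDCs, -3.02 in macrophages, where its LPS value of 185338 was the maximum of the table, -1.97 in neutrophils and -0.88 in mast cells. Il12a was lower in macrophages (-2.24) and neutrophils (-1.55) and was at 34 and 37.5 in mast cells (0.14). These genes were picked from the named genes after their values had been seen.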

How the data were processed

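RNA-seq was made from sDCs in 4 groups of 2 libraries. The values, handled here as a score, were made by the authors with RSEM 1.2.1 and bowtie 0.12.9 on Ensembl v67 (mm9) annotation, followed by GC normalization in EDASeq and averaging within each group. All are multiples of 0.5, and because the 18 columns have the same highest value, differences in total RNA between groups cannot be seen. The table has 17016 lines, of which 1 is broken and 22 (0.129%) name no gene. The 16993 transcripts left cover 6509 genes, a part of the transcriptome. Depth and replicate values were not used here. The table covers 36 of 37 samples.

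Transcripts were summed per gene (minimum 10, pseudocount 1, call at 2-fold). Summing hides isoform shifts: of suppressed genes with several kept transcripts, 21 of 25 had all in 1 direction, and of raised genes 42 of 48. No test was possible on 1 value per group. Named genes were the 15 largest falls and rises with the higher value at least 100, called list members, genes nearest the limit and genes called in 4 cell types. Other genes were named after their values were seen, and a few genes are not reported here. Members and lists were chosen with earlier results of these data known. Alternatives were pseudocounts, minima, single transcripts, centring and a 1.5-fold limit. Promoters of 5939 of 5946 genes were read from NCBIM37 with GENCODE vM1, from the transcript with the highest value. The procedure was tested on simulated data. Python 3.11.15, pandas 2.3.3, numpy 2.4.6 and matplotlib 3.10.9 were used.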

Additional observations from a re-analysis of the deposited data

How the results depend on the processing

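No paired analysis was possible because the table holds 1 mean per group, and for the same reason leaving out each replicate could not be run. The numbers of genes called depended on the treatment of low values, and less so the share of LPS-raised genes that IL-10 suppressed. A pseudocount of 10 gave 62 suppressed and 110 raised genes in place of 119 and 143. A minimum of 50 gave 66 suppressed and 92 raised genes, and no minimum 195 and 216. Single transcripts gave 1020 and 1009 calls and a share of 23.8% in place of 12.3%. A limit of 1.5-fold gave 344, 351 and 22.5%. Centring on the median gene gave 135 and 126. The correlation of the IL-10 changes with and without LPS was 0.41 with a pseudocount of 10 and 0.45 with a minimum of 50. Of the 69 named genes, Tlr3 was the only one to reverse, to 0.60 with its most abundant transcript. With a pseudocount of 10, 6 named genes no longer passed 2-fold (Zc3h12d, Dos, Il18, Ccl19, Tlr3 and Lrg1), and after centring 4 (Zc3h12d, Dos, Slc16a3 and Mmp8), while Trim12a and Oas3 then passed it. Nfam1 passed with its most abundant transcript. The causes were not tested, and without replicate values no size of error can be given for any of these genes.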

Other observations

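A few complement and C-type lectin genes, picked here after their values had been seen and with no list behind them, were raised by IL-10 during LPS. Cfb, which encodes complement factor B, was at 102 untreated, 547 with LPS and 1560 with IL-10+LPS (log2 change 1.51). C1ra, a protease of the C1 complex, was at 21, 8 and 65.5 (2.89), and its relative C1rl at 43.5, 19 and 51 (1.38). Of the lectin genes Clec4a3 was at 1796 untreated, 413 with LPS and 1099 with both (1.41), Clec4n, which encodes dectin-2, at 3392.5, 1105 and 2381.5 (1.11), and Clec4b2 at 80, 19 and 39 (1.00). Other lectin genes did not pass 2-fold, with Clec4d at 1642 with LPS and 2413 with both (0.56), Clec4e at 3178.5 and 4084 (0.36), Clec4a4 at 476 and 281 (-0.76) and Clec7a, which encodes dectin-1, at 908.5 and 560 (-0.70).

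Suppressed genes outside the lists include Gdf15, a stress-induced member of the TGF-beta superfamily, at 259.5 untreated, 1262 with LPS and 446.5 with both (-1.50), Itgb8, the integrin beta 8 subunit that activates TGF-beta, at 877.5, 3920 and 1783 (-1.14), and Lrrc32, which holds latent TGF-beta at the cell surface, at 5, 63.5 and 16 (-1.92). Tgfb3 went the other way, from 38 untreated to 5.5 with LPS and 33 with both (2.39). Actr3 and Msn, which organise actin and its link to the membrane, were raised at the top of the scale: Actr3 was at 94981 untreated, 185338 with IL-10, 59701 with LPS and 140160 with both (1.23), and Msn at 33638.5, 185482, 29421 and 59847 (1.02). Both reach the maximum of the table with IL-10 alone, so those values may be too low. Among genes kept, 3 suppressed genes were listed at 0 with IL-10+LPS (Olfr56, Naalad2 and Rbfox2) and 4 raised genes at 0 with LPS (Il34, Scnn1a, Tm6sf2 and Vmn2r26), and no fold is given for them.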
